A study of Danio rerio with 6 samples.

Results

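The genes described here are 10 genes of T cell identity and antigen receptor recombination: lck, zap70, cd4-1, cd8a, cd28, il7r, tox, gata3, rag1 and rag2. They were taken from a deposited table of 32057 zebrafish genes by symbol, with letter case ignored, and each of the 10 matched exactly 1 Ensembl identifier. The name table writes 5 of them in capitals (ZAP70, TOX, GATA3, RAG1 and RAG2), and the zebrafish spelling is used below. The tissue was whole kidney marrow, the main blood-forming organ of the adult zebrafish, profiled by bulk RNA sequencing. In 3 libraries the fish were germline heterozygotes for the nz171 allele of rad21a, labelled rad21+/-, in which a codon for glycine in exon 8 is changed to a stop. In the other 3 libraries they were wild-type siblings from crosses of heterozygous parents. Each library pooled the marrow of 3 adult fish, and age beyond adulthood, sex and clutch are not stated. The pools are called heterozygous pools 1 to 3 and wild-type pools 1 to 3. Nothing in the labels says that pools were made on separate days, so the p-values measure the spread between these pools only.

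T cells mature in the thymus and circulate through the kidney marrow, where B cells are also made. The kinase Lck, held beneath the coreceptors Cd4 and Cd8, starts the signal of an engaged T cell receptor, and Zap70 carries it on. Rag1 and Rag2 form the recombinase that cuts antigen receptor genes so that they can be joined in new combinations, in immature T cells and immature B cells alike. Rad21 is the subunit that closes the cohesin ring, a complex that in mammals also folds chromatin over antigen receptor loci during recombination. In zebrafish, cd4-1 is also used by some mononuclear phagocytes and lck by natural killer-like cells, and gata3 is used by the kidney duct of vertebrate embryos, so that several of these transcripts do not belong to T cells alone.

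Several features of the libraries bear on what follows. Values are TPM, the abundance of transcripts scaled by gene length and then to 1 fixed sum in each library, a unit that hides the number of reads behind it. The mutated gene rad21a stood at 63.6 ± 3.22 TPM in the heterozygous pools and 97.4 ± 20.3 TPM in the wild-type pools (SD, n = 3 each). Heterozygous pool 1 was rich in leukocyte transcripts: ptprc, the pan-leukocyte phosphatase Cd45, stood at 126.1, 64.1 and 61.1 TPM in heterozygous pools 1 to 3, against 49.3, 35.3 and 59.95 TPM in wild-type pools 1 to 3. Transcripts of 18 egg and germ cell genes summed to between 5.01 and 198.4 TPM in the heterozygous pools, and to 276.2, 16724 and 4740 TPM in wild-type pools 1 to 3. Interrenal and chromaffin genes summed to 10.7, 439.6 and 713.4 TPM in heterozygous pools 1 to 3, against between 7.22 and 35.7 TPM in the wild-type pools. The labelled tissue matched its markers: lyz of neutrophils and hbaa1 of red cells were among the most abundant of the marker genes examined. Tubule genes were present too, with CDH17, an adhesion protein of kidney tubules, at 251, 301 and 465 TPM in heterozygous pools 1 to 3 and 284, 155 and 406 TPM in wild-type pools 1 to 3. In bulk tissue, fewer cells of a type and less RNA per cell cannot be told apart.

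All 10 genes were low. Single values ran from 0.130 TPM, for cd8a in heterozygous pool 2, to 7.18 TPM, for rag1 in heterozygous pool 1. In the heterozygous pools the order of mean levels was il7r, zap70, rag1, lck, rag2, cd4-1, gata3, tox, cd28 and cd8a. In that order the ranges of neighbouring genes over the 3 pools overlapped everywhere except between cd28 and cd8a, which was lower. In the wild-type pools the order was il7r, zap70, cd4-1, gata3, lck, cd28, rag1, tox, cd8a and rag2. There the ranges of neighbours overlapped everywhere except between il7r and zap70.

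**Figure D1:**
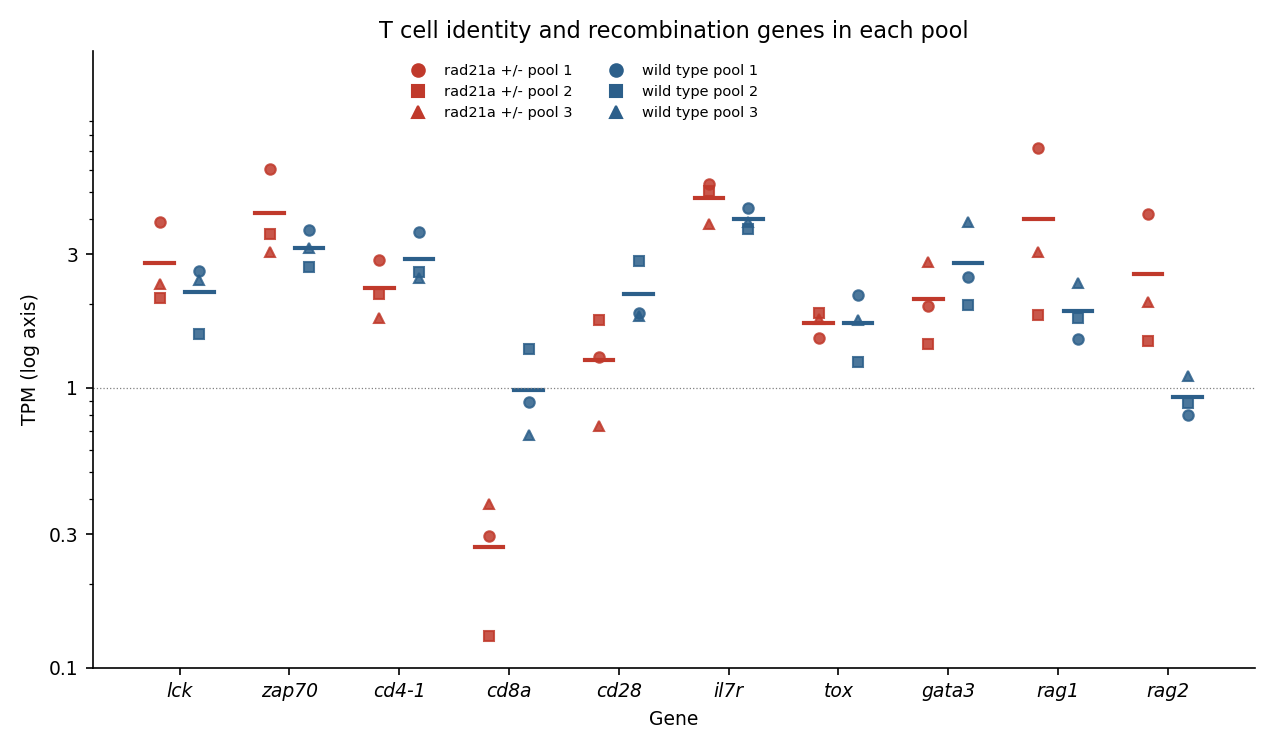
TPM on a log axis of the 10 genes in every pool, heterozygous pools in red left of wild-type pools in blue, with a bar at the mean of 3 pools and a dotted line at 1 TPM. The cd8a and cd28 points of the heterozygous pools lie below those of the wild-type pools, the rag2 points lie above them, and the other 7 genes overlap.

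The comparison asked whether the level of each gene differed between heterozygotes and wild type. Differences were tested with limma, a linear model with variances moderated across genes, on log2(TPM + 1), with Benjamini-Hochberg adjustment over all 16537 genes that reached 1 TPM in at least 3 libraries. Of the 10 genes, 9 were tested, and cd8a was not, since it reached 1 TPM in 1 library. For rag2 the filter was met by all 3 heterozygous pools and 1 wild-type pool. None of the 9 passed an adjusted p of 0.05, and 1 (rag2) had an unadjusted limma p under 0.05. Over all tested genes 1.37% were called and 15.0% had an unadjusted limma p under 0.05. Log2 fold changes were positive for 6 and negative for 3 of the 9, with a median of 0.20. Over all tested genes 48.1% were positive, and the median was -0.02. These figures leave out cd8a, which was lower in the heterozygotes. In a fit with no filter, the median over all 10 genes was 0.10, against -0.03 over all genes in that fit. There the unadjusted limma p was 0.0087 for cd8a and 0.039 for rag2, and neither was called. The share of all genes under 0.05 in that fit was not computed. The groups did not overlap for 3 of the 10 genes, 1 higher and 2 lower in the heterozygotes. Among all genes above 0 in some library 21.6% did not overlap, 10.0% with the heterozygotes above and 11.5% with them below.

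**Figure D2:**
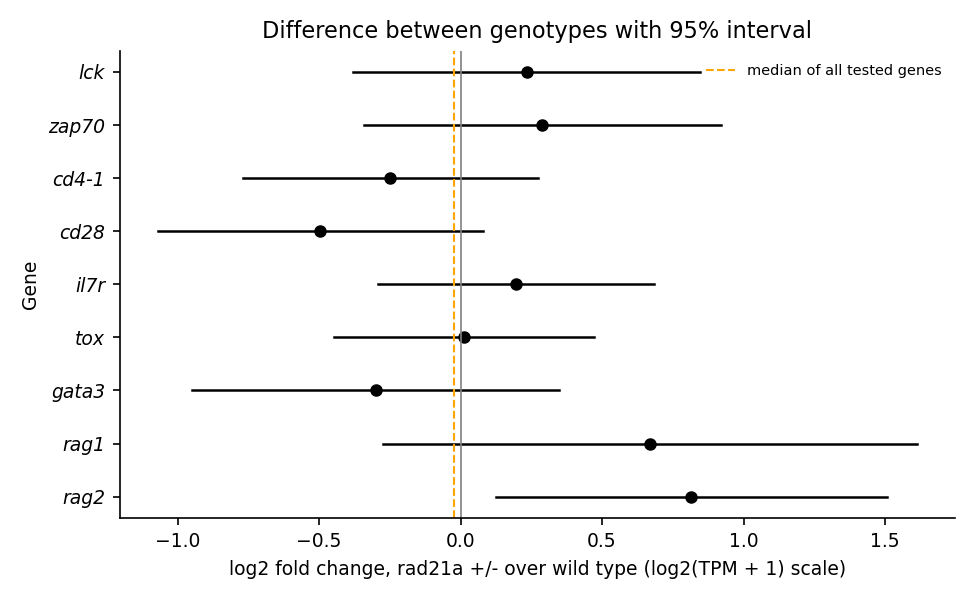
Log2 fold change of the 9 tested genes, heterozygous over wild type, on the log2(TPM + 1) scale, with points at the limma estimate and lines for its 95% interval; the dashed line is the median of all tested genes at -0.02. Every interval but that of rag2 includes 0, and no gene passed after adjustment over all genes.

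Among the kinases, lck stood at 3.92, 2.101 and 2.36 TPM in heterozygous pools 1 to 3 and at 2.62, 1.55 and 2.42 TPM in wild-type pools 1 to 3. The groups overlapped, with the highest value in heterozygous pool 1 and the lowest in wild-type pool 2. The log2 fold change was 0.23 with a 95% interval from -0.38 to 0.85 (limma adjusted p = 0.68), and it was 0.030 without heterozygous pool 1, 0.079 without wild-type pool 2 and 0.36 without heterozygous pool 2. zap70 showed the same arrangement, at 6.06, 3.55 and 3.06 TPM in heterozygous pools 1 to 3 and 3.66, 2.70 and 3.16 TPM in wild-type pools 1 to 3. Its log2 fold change was 0.29, with an interval from -0.34 to 0.92 (limma adjusted p = 0.62), and it was 0.051 without heterozygous pool 1 and 0.45 without heterozygous pool 3. Both kinases were present in a nearly fixed proportion: zap70 over lck was 1.51 ± 0.198 in the heterozygous pools and 1.48 ± 0.228 in the wild-type pools (SD, n = 3 each). Among the 9 tested genes zap70 was also the one whose profile over the 6 libraries lay nearest to that of lck. Natural killer and cytotoxic genes, 15 in all, summed to 167.9, 659.8 and 164.7 TPM in heterozygous pools 1 to 3 and 258.5, 259.6 and 412.5 TPM in wild-type pools 1 to 3. In heterozygous pool 2 most of that sum was nkl.2, at 479.1 TPM. In the other pools its largest part was the chemokine gene ccl33.3, at 63.7 to 213.9 TPM. Log2 fold changes were positive for 3 and negative for 5 of the 8 tested genes of this list, so the sum hides opposite directions. The part of natural killer-like cells in the levels of both kinases was not tested.

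The coreceptor genes cd4-1, cd4-2.2, cd8a and cd8b all had a lower mean in the heterozygous pools. Among them the groups were without overlap for cd8a alone, and the genes were not tested against each other. cd4-1 stood at 2.86, 2.17 and 1.78 TPM in heterozygous pools 1 to 3 and 3.60, 2.58 and 2.46 TPM in wild-type pools 1 to 3. The groups overlapped through heterozygous pool 1, and the log2 fold change was -0.25, with an interval from -0.77 to 0.27 (limma adjusted p = 0.61). It was -0.14 without heterozygous pool 3, -0.12 without wild-type pool 1 and -0.37 without heterozygous pool 1. Its relative cd4-2.2, another Cd4-type coreceptor, likewise overlapped, at 3.16 ± 1.21 TPM in the heterozygous pools and 3.42 ± 0.897 TPM in the wild-type pools (SD, n = 3 each). The 7 macrophage genes examined summed to 1181, 833 and 770.3 TPM in heterozygous pools 1 to 3 and 772.6, 1068 and 1074 TPM in wild-type pools 1 to 3, and the part of phagocytes in the cd4-1 values was not tested.

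The Cd8 coreceptor marks cytotoxic T cells and is built from alpha and beta chains. Its alpha chain gene cd8a was the lowest of the 10 genes in the heterozygous pools, at 0.295, 0.130 and 0.386 TPM in pools 1 to 3, against 0.894, 1.38 and 0.677 TPM in wild-type pools 1 to 3. Each heterozygous pool lay below each wild-type pool, with means of 0.271 ± 0.129 TPM in the heterozygous pools and 0.984 ± 0.361 TPM in the wild-type pools (SD, n = 3 each). The heterozygous mean was 27.5% of the wild-type mean. With every gene above 0 in the limma fit across all genes, its log2 fold change on the log2(TPM + 1) scale was -0.63 and it was not called (limma adjusted p = 0.23). An exact test that permutes the genotypes, with 20 possible arrangements, gave a two-sided p of 0.1, the smallest it can give. The beta chain gene cd8b, adjacent to cd8a among protein-coding genes in the GRCz12tu RefSeq annotation, stood at 0.0819, 0.190 and 0.323 TPM in heterozygous pools 1 to 3 and 0.659, 0.316 and 0.587 TPM in wild-type pools 1 to 3. Its groups overlapped, since heterozygous pool 3 was slightly above wild-type pool 2. At levels this low each value may rest on few reads, and the number of reads is unknown. The ratio of cd4-1 to cd8a was 9.69, 16.7 and 4.62 in heterozygous pools 1 to 3 and 4.02, 1.87 and 3.63 in wild-type pools 1 to 3, without overlap. cd8a by itself was already without overlap and is the low denominator here. The share of gene pairs whose ratio does not overlap was not computed, so this ratio alone gives no result about either gene. Wild-type pool 2, which had the highest cd8a, also had the highest egg transcript sum. Wild-type pool 3, above pool 1 in that sum, had the lowest cd8a of the wild-type pools. The part of egg RNA in the cd8a values was not tested.

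cd28, the receptor that gives T cells their costimulatory signal, stood at 1.29, 1.75 and 0.732 TPM in heterozygous pools 1 to 3 and 1.84, 2.84 and 1.81 TPM in wild-type pools 1 to 3. The groups did not overlap, but heterozygous pool 2 and wild-type pool 3 nearly met. The log2 fold change was -0.50 with an interval from -1.07 to 0.08, and the difference was not called (limma adjusted p = 0.39). Without heterozygous pool 3 it was -0.32. Like cd8a, cd28 was lowest among the wild-type pools in pool 3, which had more egg transcripts than pool 1. Both genes were highest in wild-type pool 2, the pool with the most egg transcripts, whose part in cd28 was not tested. The related gene cd28l shared that peak, at 10.3, 6.22 and 6.15 TPM in heterozygous pools 1 to 3 and 7.003, 19.1 and 10.3 TPM in wild-type pools 1 to 3, with overlap. il7r, the receptor chain for the lymphocyte survival factor interleukin-7, had the highest mean of the 10 genes in both genotypes, at 5.34, 5.06 and 3.85 TPM in heterozygous pools 1 to 3 and 4.403, 3.69 and 3.90 TPM in wild-type pools 1 to 3. Its groups overlapped through heterozygous pool 3, and it varied least among the 10 in the wild-type pools, with a coefficient of variation of 9.17%. Its log2 fold change was 0.20 with an interval from -0.29 to 0.68 (limma adjusted p = 0.66), and it was 0.12 without heterozygous pool 1 and 0.31 without heterozygous pool 3.

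The transcription factors tox and gata3 are both needed for the T cell programme in the mammalian thymus, tox for the commitment of CD4 T cells and gata3 from the first steps of the lineage. tox was the gene with the nearest means, at 1.51, 1.85 and 1.77 TPM in heterozygous pools 1 to 3 and 2.14, 1.24 and 1.75 TPM in wild-type pools 1 to 3. The interval of its log2 fold change ran from -0.45 to 0.47, the narrowest of the 9 (limma adjusted p = 0.98). gata3 stood at 1.96, 1.43 and 2.82 TPM in heterozygous pools 1 to 3 and 2.49, 1.98 and 3.92 TPM in wild-type pools 1 to 3. Its groups overlapped, and pool 3 was the highest and pool 2 the lowest within each genotype. Its log2 fold change was -0.30, with an interval from -0.95 to 0.35 (limma adjusted p = 0.62). It was -0.096 without wild-type pool 3, -0.14 without heterozygous pool 2 and -0.47 without heterozygous pool 3. The tubule regulator PAX8, a gene chosen after its values were seen, had the same order of pools within each genotype, at 9.90, 8.44 and 17.4 TPM in heterozygous pools 1 to 3 and 14.3, 13.7 and 21.01 TPM in wild-type pools 1 to 3. Summed over 18 tubule genes, the levels were 1022, 1163 and 1864 TPM in heterozygous pools 1 to 3 and 1232, 547 and 1233 TPM in wild-type pools 1 to 3. In the heterozygous pools this sum was lowest in pool 1, whereas gata3 and PAX8 were lowest in pool 2. In the wild-type pools the sum was lowest in pool 2, as both genes were. The part of tubule RNA in the gata3 values was not tested.

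The recombinase genes had the largest positive differences among the 9. rag1 stood at 7.18, 1.81 and 3.07 TPM in heterozygous pools 1 to 3 and 1.49, 1.77 and 2.38 TPM in wild-type pools 1 to 3. The groups overlapped, because heterozygous pool 2 lay below wild-type pool 3, and heterozygous pool 1 stood far above all others. The means were 4.02 ± 2.81 TPM in the heterozygous pools and 1.88 ± 0.452 TPM in the wild-type pools (SD, n = 3 each), with a log2 fold change of 0.67 and an interval from -0.28 to 1.61 (limma adjusted p = 0.46). Without heterozygous pool 1 the log2 fold change of rag1 was 0.24, and without heterozygous pool 2 it was 1.01. rag2, whose protein is the partner of Rag1 in the recombinase, stood at 4.16, 1.47 and 2.03 TPM in heterozygous pools 1 to 3 and 0.799, 0.880 and 1.101 TPM in wild-type pools 1 to 3. All heterozygous pools lay above all wild-type pools, with means of 2.56 ± 1.42 TPM in the heterozygous pools and 0.927 ± 0.156 TPM in the wild-type pools (SD, n = 3 each), a 2.76-fold difference. The wild-type values of rag2, near or under 1 TPM, may rest on few reads, and the number of reads is unknown. The log2 fold change of rag2 was 0.82, with an interval from 0.12 to 1.51 (limma adjusted p = 0.27), and without heterozygous pool 1 it was 0.51 (limma adjusted p = 0.40).

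rag1 and rag2 lie next to each other among protein-coding genes in the GRCz12tu RefSeq annotation, and their levels had the same order over the 3 heterozygous pools and over the 3 wild-type pools. rag1 over rag2 was 1.72, 1.23 and 1.51 in heterozygous pools 1 to 3 and 1.87, 2.01 and 2.16 in wild-type pools 1 to 3. This ratio did not overlap between the groups and was lower in the heterozygotes. rag2 by itself was already without overlap, and the share of gene pairs whose ratio does not overlap was not computed. The ratio of rag1 to rag2 alone therefore gives no result about either gene. Heterozygous pool 1, the highest for rag1 and rag2, was also the highest for all 15 tested B cell genes. That peak was not particular to B cell genes. The same pool was the highest for all 6 pan-leukocyte genes, for 22 of 25 tested genes of T cell receptor signalling and for 23.5% of all tested genes. cd79a, a signalling chain of the B cell receptor, stood at 100.2, 38.59 and 35.7 TPM in heterozygous pools 1 to 3 and 10.1, 17.2 and 23.2 TPM in wild-type pools 1 to 3. Summed over 16 B cell genes, the levels were 1361, 410 and 524.5 TPM in heterozygous pools 1 to 3 and 132.7, 149.6 and 318.1 TPM in wild-type pools 1 to 3, also without overlap. The largest parts were ighm and igic1s1, with heterozygous means of 293.2 and 237.6 TPM and wild-type means of 65.6 and 32.5 TPM. Of the 15 tested B cell genes, 8 were higher in the heterozygotes without overlap, beside 1975 of all 16537 tested genes. All 15 tested genes of that list had a positive log2 fold change, with a median of 0.72, and 0 were called by limma, with 8 at an unadjusted p under 0.05. One of the 8, irf4b, reached 1 TPM in the heterozygous pools alone and so entered the test through them. Over all tested genes 48.1% had a positive log2 fold change, 1.37% were called and 15.0% had an unadjusted limma p under 0.05. Per 100 TPM of cd79a, rag1 was at 7.17, 4.70 and 8.60 TPM in heterozygous pools 1 to 3 and at 14.7, 10.3 and 10.2 TPM in wild-type pools 1 to 3, lower in the heterozygotes without overlap. Per 100 TPM of cd79a, rag2 was at 4.16, 3.82 and 5.70 TPM in heterozygous pools 1 to 3 and at 7.90, 5.13 and 4.74 TPM in wild-type pools 1 to 3, with overlap. cd79a itself was 3.45-fold higher in the mean of the heterozygotes, without overlap, so a gene with equal levels would be lower on this scale. The share of all genes lower on it was not computed, so these ratios alone give no result about rag1 or rag2. The part of B cell transcripts in the levels of rag1 and rag2 was not tested.

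**Figure D3:**
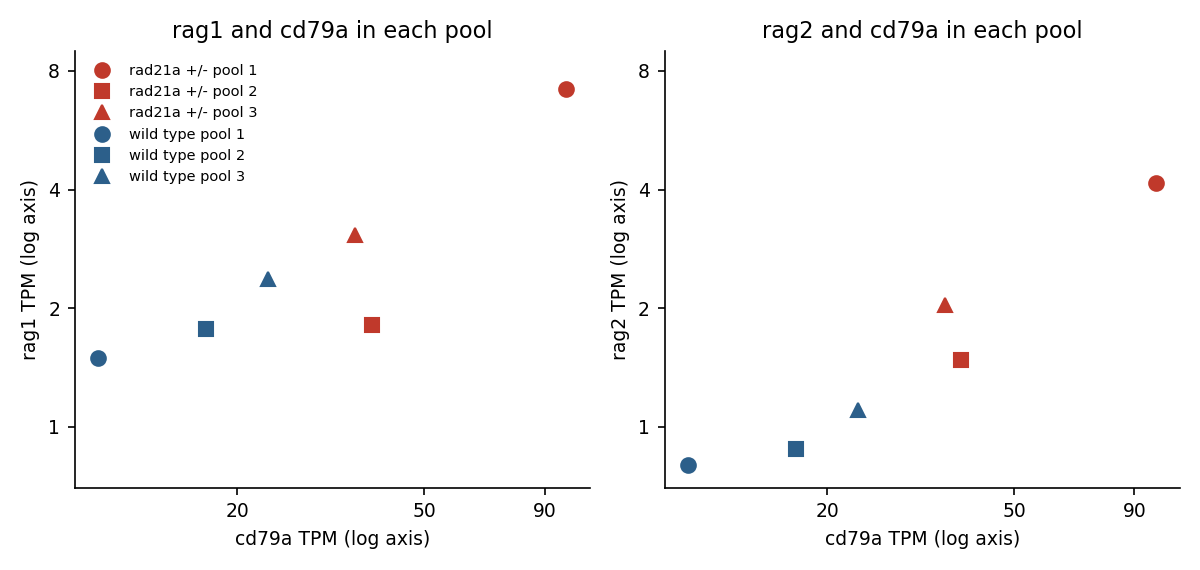
TPM of rag1 (left) and rag2 (right) against TPM of the B cell gene cd79a, both axes on a log scale, with 1 point per pool, heterozygous in red and wild type in blue. Heterozygous pool 1 is the highest point for all 3 genes and wild-type pool 1 the lowest, and the 3 heterozygous pools lie to the right of the 3 wild-type pools.

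Heterozygous pool 1 was the highest library for 5 of the 10 genes (lck, zap70, il7r, rag1 and rag2). Among 80 tested genes of the wider T cell and recombination lists, 63.8% were highest in that pool, against 23.5% of all tested genes. Levels were therefore also set beside ptprc, a choice made after seeing the data. Per 100 TPM of ptprc, lck was at 3.11, 3.28 and 3.86 TPM in heterozygous pools 1 to 3 and 5.31, 4.398 and 4.04 TPM in wild-type pools 1 to 3, so that on this scale it was lower in the heterozygotes without overlap. The same held for cd4-1, cd8a, cd28, tox and gata3, 6 of the 10 genes, and 34.3% of all genes above 0 were lower without overlap on this scale. ptprc itself was 1.74-fold higher in the mean of the heterozygotes, without overlap. A gene with equal levels, as tox nearly was, would therefore be lower on this scale. The groups overlapped on it for zap70, il7r, rag1 and rag2. For rag2 the values per 100 TPM of ptprc were 3.30, 2.298 and 3.32 TPM in heterozygous pools 1 to 3 and 1.62, 2.496 and 1.84 TPM in wild-type pools 1 to 3. With all libraries rescaled to 6 leukocyte genes, the median log2 fold change of all tested genes was -0.33 and that of the 9 genes -0.11. The signs of lck, zap70, il7r and tox were negative there, while rag1 (0.37) and rag2 (0.57) were positive, and 0 of the 9 were called by limma (1, rag2, at an unadjusted p under 0.05).

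**Figure D4:**
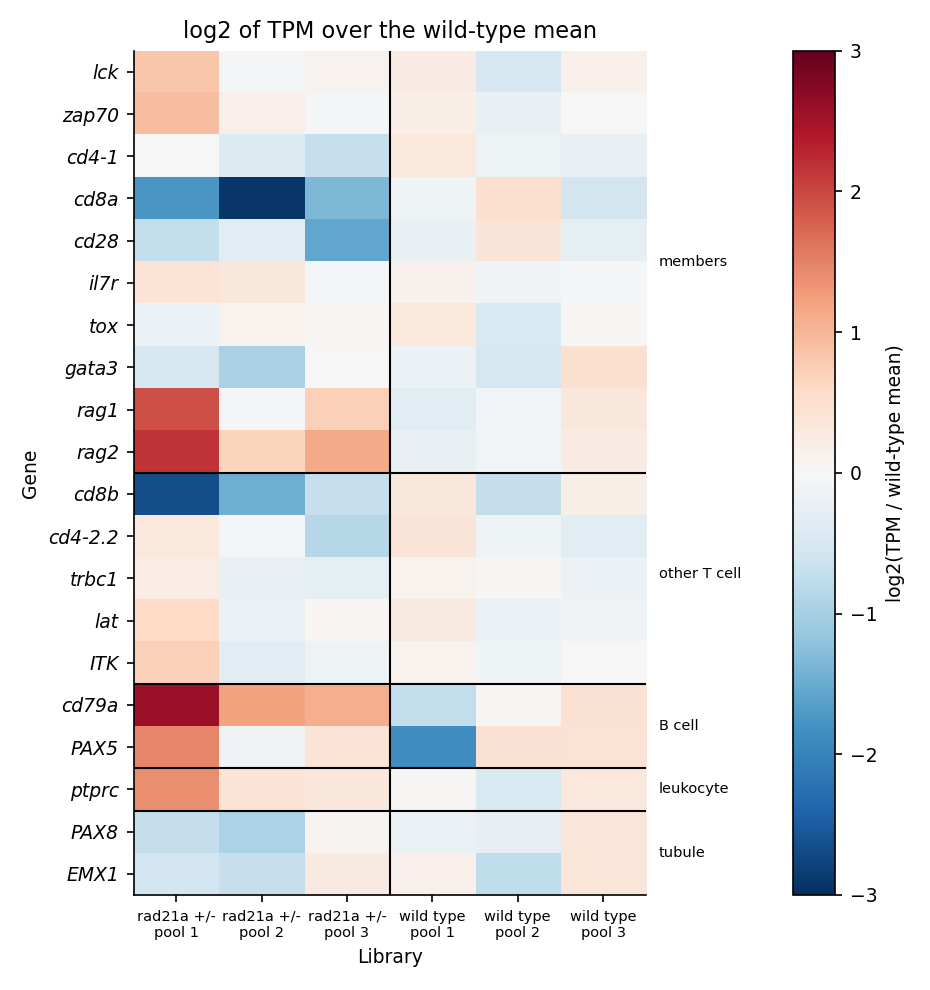
Log2 of the TPM in each pool over the wild-type mean of the gene, heterozygous pools left of wild-type pools, for the 10 genes and for other T cell, B cell, leukocyte and tubule genes. The first column, heterozygous pool 1, is above the wild-type mean for lck, zap70, rag1, rag2, cd79a and ptprc, and below it for cd8a, cd8b and cd28.

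Wider lists of T cell genes gave the surroundings of these values. The counts of each list stand beside shares over all tested genes of 48.1% with a positive log2 fold change and 15.0% with an unadjusted limma p under 0.05. Of the 80 tested genes of the wider lists, 8 were higher and 4 lower in the heterozygotes without overlap. Of all 16537 tested genes, 1975 were higher and 1619 lower without overlap. Of 27 matched genes of T cell receptor signalling, 25 were tested and 0 were called by limma in either direction (3 had an unadjusted p under 0.05, all higher), with 18 positive and 7 negative log2 fold changes and a median of 0.18. trbc1, named as a constant segment of the T cell receptor beta chain, stood at 14.3, 10.4 and 10.1 TPM in heterozygous pools 1 to 3 and 13.2, 12.6 and 10.9 TPM in wild-type pools 1 to 3 (chosen after its values were seen). Its groups overlapped, and the interval of its log2 fold change ran from -0.61 to 0.45. The smallest p in this list belonged to bcl10, an adaptor that links antigen receptors to NF-kappa-B in T and B cells, at 8.04, 4.36 and 4.84 TPM in heterozygous pools 1 to 3 and 2.02, 1.80 and 2.82 TPM in wild-type pools 1 to 3. The groups did not overlap, and bcl10 was not called (log2 fold change 1.04, limma adjusted p = 0.17). sh2d1ab and skap1, further adaptors of lymphocyte receptors, had log2 fold changes of 0.80 and 0.47 (limma adjusted p = 0.25 and 0.30).

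Surface receptors showed 5 positive and 3 negative log2 fold changes among 8 tested, with a median of 0.10 and 0 called by limma (1 at an unadjusted p under 0.05). CCR7, the chemokine receptor that guides naive T cells to lymphoid tissue in mammals, had the smallest p. It stood at 1.3003, 1.23 and 1.35 TPM in heterozygous pools 1 to 3 and 2.46, 2.07 and 3.37 TPM in wild-type pools 1 to 3. The groups did not overlap and the difference was not called (log2 fold change -0.65, limma adjusted p = 0.22). CCR9 (ENSDARG00000055186), 1 of 2 genes of that name and a receptor for thymus homing, stood at 31.2, 5.91 and 6.21 TPM in heterozygous pools 1 to 3 and 7.68, 5.37 and 5.92 TPM in wild-type pools 1 to 3, so that a single pool stood apart. Log2 fold changes of cxcr3.2 and cd28l were 0.49 and -0.55 (limma adjusted p = 0.50 and 0.53). ccl25b, named as a relative of the ligand of CCR9, stood at 106.1, 54.9 and 77.8 TPM in heterozygous pools 1 to 3 and 22.6, 26.6 and 32.7 TPM in wild-type pools 1 to 3, without overlap (log2 fold change 1.48, limma adjusted p = 0.081). It led the list of thymic epithelium genes, whose defining factor foxn1 was at no more than 0.0303 TPM in the heterozygous pools and 0.210 TPM in the wild-type pools.

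All 12 tested genes of common gamma chain cytokine signalling, the pathway il7r belongs to, had a positive log2 fold change, with a median of 0.26, and 0 were called by limma, with 0 at an unadjusted p under 0.05. Among all tested genes 48.1% were positive. Of the 12, 9 were highest in heterozygous pool 1, against 23.5% of all tested genes. The kinase gene jak3 stood at 18.7, 11.5 and 13.2 TPM in heterozygous pools 1 to 3 and 9.13, 6.74 and 11.5 TPM in wild-type pools 1 to 3, with the closest pair nearly equal. The receptor chains il4r.1 and il2rga and the factor stat5b had log2 fold changes of 0.74, 0.58 and 0.38 (limma adjusted p = 0.40, 0.42 and 0.45). The ligand gene il7 was tested and lay among these 12.

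T lineage transcription factors split into 11 positive and 7 negative log2 fold changes among 18 tested, with a median of 0.04 and 0 called by limma (1 at an unadjusted p under 0.05). IKZF1, the lymphoid factor Ikaros, stood at 53.0, 38.2 and 36.2 TPM in heterozygous pools 1 to 3 and 27.5, 18.8 and 33.2 TPM in wild-type pools 1 to 3, without overlap (log2 fold change 0.68, limma adjusted p = 0.33). TCF7, which acts early in T cell commitment in mammals, lay the other way without overlap, at 1.13, 0.793 and 0.769 TPM in heterozygous pools 1 to 3 and 1.53, 1.57 and 1.21 TPM in wild-type pools 1 to 3 (log2 fold change -0.36, limma adjusted p = 0.37). For TCF7 the filter of 1 TPM was met by all 3 wild-type pools and 1 heterozygous pool. For rorcb it was met by all 3 heterozygous pools and 1 wild-type pool. rorcb and EOMES (ENSDARG00000006640) had log2 fold changes of 0.47 and -1.15 (limma adjusted p = 0.38 and 0.39). That EOMES gene was at 0.887 to 1.56 TPM in the heterozygous pools, and at 1.21, 10.5 and 4.19 TPM in wild-type pools 1 to 3, in the order of the egg transcript sum. The part of egg RNA in it was not tested.

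Partners of the recombinase, which join the cut ends, had 9 positive and 8 negative log2 fold changes among 17 tested, with a median of 0.08 and 0 called by limma (1 higher and 1 lower at an unadjusted p under 0.05). DCLRE1C, the nuclease Artemis that opens the hairpin ends left by the recombinase, stood at 12.0, 10.1 and 10.7 TPM in heterozygous pools 1 to 3 and 6.14, 5.47 and 8.34 TPM in wild-type pools 1 to 3. The groups did not overlap, and it was not called (log2 fold change 0.66, limma adjusted p = 0.26). nhej1, an end-joining factor, was lower without overlap, at 9.52, 11.8 and 11.3 TPM in heterozygous pools 1 to 3 and 13.2, 26.0 and 17.1 TPM in wild-type pools 1 to 3 (log2 fold change -0.69, limma adjusted p = 0.33). polm and hmgb1a had log2 fold changes of -0.89 and 0.38 (limma adjusted p = 0.45 and 0.46). All 8 genes with a negative log2 fold change (nhej1, polm, POLL, paxx, xrcc4, XRCC5, XRCC6 and LIG4), and h2ax among the positive ones, were highest in wild-type pool 2 and lowest in wild-type pool 1 among the wild-type pools, the order of the egg transcript sum. The part of egg RNA in these values was not tested. dntt, which adds bases at the joints and so marks active recombination, stood at 1.65, 0.395 and 0.509 TPM in heterozygous pools 1 to 3 and 0.509, 1.12 and 0.387 TPM in wild-type pools 1 to 3, was too low to be tested, and was named after its values were seen.

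**Figure D5:**
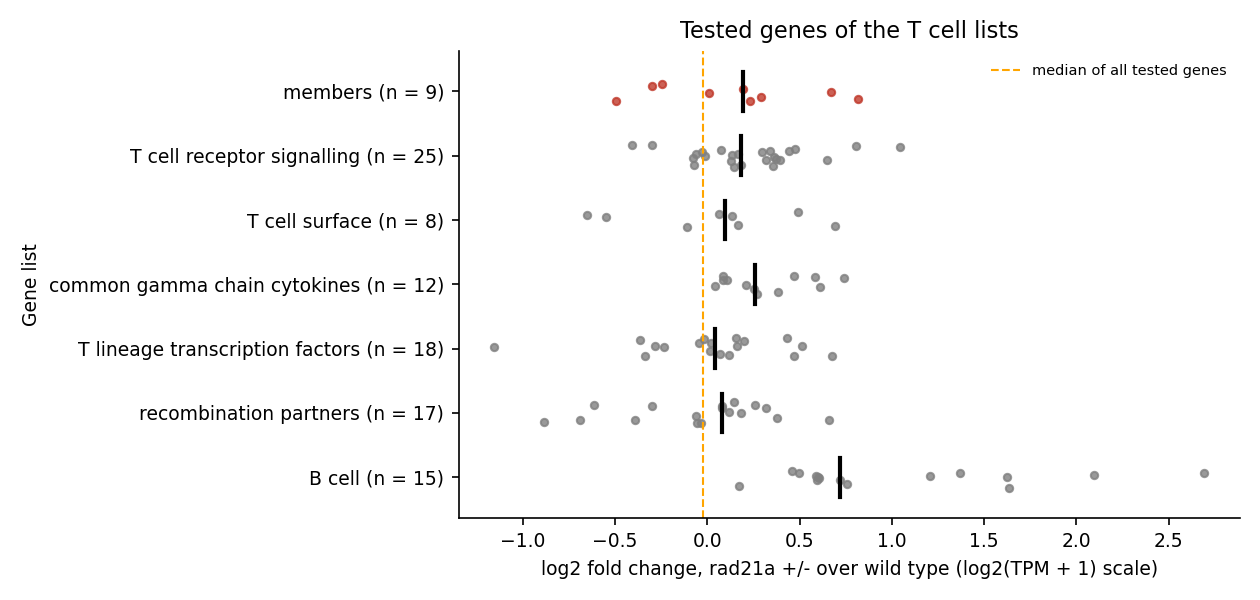
Log2 fold changes of the tested genes of each list, heterozygous over wild type, on the log2(TPM + 1) scale, with 1 point per gene, a bar at the median of each list and a dashed line at the median of all tested genes. Medians of the 5 wider lists lie between 0.04 and 0.26, that of the 9 tested genes at 0.20 and that of the B cell list at 0.72, and not one gene in these lists was called.

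The genes with the profile most like that of lck were sought among 16536 tested genes, by the root mean square difference of log2(TPM + 1) over the 6 libraries after each gene was centred on its mean. The nearest with a gene-like symbol were abi3a (0.0449), TIMP2 (0.0477), esyt1a (0.0514), SP4 (0.0535) and smarca2 (0.0543). None of these is in the lists of T cell genes, and all were highest in heterozygous pool 1 and lowest in wild-type pool 2, as lck was. zap70 lay at 0.119, with 1.04% of genes nearer, and il7r at 0.212, with 10.2% nearer. rag2 and rag1 lay at 0.353 and 0.388, and cd28, at 0.555 with 66.4% of genes nearer, was the farthest of the tested 9.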

How the data were processed

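The authors deposited 1 table of TPM values for the 6 libraries. Reads were aligned to build GRCz11, with HISAT2 2.0.4, featureCounts and FastQC named as tools, per the submitters' processing notes; the gene models, their lengths, the strand setting and the handling of multiply mapped reads are not stated, so overlapping and near-identical genes are uncertain. Each column adds up to 1000000, read depth is lost, and no counting interval was computed. Total RNA was used for TruSeq v2 libraries, per the labels' protocols. Symbols came from a name table (28988 of 32057 identifiers), and adjacency of genes from RefSeq GRCz12tu, a build other than that of the files. A list gene matched by symbol, or by its capital name without the copy suffix where the symbol was lacking.

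The tests used limma 3.58.1 in R 4.3.3 with a mean-variance trend, a pseudocount of 1, and genotype as the only term. Fold changes on the log2(TPM + 1) scale understate changes of low genes. The fit was also run on simulated data with independent errors in each gene, without differences shared by whole pools. That run checks the code and not the error rate in these libraries. Members, lists, alternatives and the naming rule were chosen with earlier results of these data known. The rule named every member, every called gene and the 4 smallest p-values of each wider list, and the 5 genes most like lck. One gene that the rule named in a wider list is not reported here. Of 125 listed wider genes, those without a matching symbol, CD3 chains among them, were not analysed here. Alternatives covered the pseudocount, filters, scaling, the trend, a replicate block and libraries left out.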

Additional observations from a re-analysis of the deposited data

How the results depend on the processing

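Under every alternative that could be run, limma called 0 of the 9 genes (0 of 10 with no filter) and 0 genes of the wider lists; with a minimum of 5 TPM none of the 10 could be tested. rag1, rag2, cd28 and gata3 kept their sign in all 16 alternatives, with limma adjusted p from 0.20 to 0.93. With libraries rescaled to leukocyte genes the median log2 fold change of the 9 was -0.11, with lck at -0.038, zap70 at -0.015, il7r at -0.11 and tox at -0.20. tox was between -0.12 and 0.12 with 1 library left out, -0.21 without wild-type pools 2 and 3 and -0.10 without heterozygous pools 2 and 3, where cd4-1 was at 0.0054. The median of the 9 ran from 0.05 to 0.31 with 1 library left out.

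The count over all genes was 227 (134 higher, 93 lower). It was 132 with no filter, 117 with a minimum of 5 TPM, 53 (10 higher, 43 lower) without wild-type pools 2 and 3, 29 (all higher) without heterozygous pools 2 and 3, and from 90 to 1088 with 1 library left out (1088 without wild-type pool 1, of which 202 were higher and 886 lower; 144 and 91 without wild-type pools 2 and 3 singly, 127, 126 and 90 without heterozygous pools 1, 2 and 3); the genes tested were held fixed when libraries were left out. Where a genotype kept 1 library, it is assumed to vary like the others. The split was 183 higher and 77 lower under quantile normalization and 74 higher and 89 lower with leukocyte rescaling. With the replicate block 25 genes were called, 10 higher and 15 lower. Deviations of same-numbered pools correlated at -0.27, 0.12 and -0.13, and those of differently numbered pools at values from -0.33 to 0.37. Not every pool correlated best with its own number. With 3 pools per genotype these correlations cannot exclude a pairing by number.

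Read depth is unknown, which limits all values near or under 1 TPM, those of cd8a, cd8b and dntt and the wild-type values of rag2 among them. The widest interval, that of rag1, allows log2 fold changes up to 1.61.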
